A study of Mus musculus with 4 samples.

Results

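The expanded T cell clones of the wild-type (WT) tumour were 88 cells in 35 clonotypes, of 234 cells of that library with exactly 1 alpha and 1 beta chain (37.6%, exact 95% interval 31.4 to 44.2). A clonotype is the set of cells to which the deposited list gives one clonotype identifier, that is, the descendants of 1 T cell as far as the receptor shows. The cells were selected on their receptor contigs alone. Each had exactly 1 productive TRA and 1 productive TRB contig, and its identifier held 2 or more barcodes with both chains. The library held 408 barcodes with a contig, of 800 in the series. The cells set beside them are 146 cells of the same library, called single-cell clonotypes here. Each had exactly 1 TRA and 1 TRB contig and was the sole paired cell of its identifier. Barcodes with 1 chain alone may stand under these identifiers too, and were not counted for them. Clonotype size and the number of chains per cell chose the groups and are given as a description. Cells of a clonotype enter the share of 37.6% together, so its interval, which takes cells as independent, is too narrow.

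The library came from a whole tumour of MC38, a mouse colon carcinoma cell line, grown in C57BL/6J mice that received anti-PD-1, an antibody against an inhibitory receptor of T cells. The other receptor library came from MC38 cells with p53 knocked out by CRISPR-Cas9 (p53 KO), in the same strain and under the same antibody, and it is set beside the WT library where a value helps. Each genotype had 1 receptor library, so there is no replicate check and no test. How many mice went into a library was not given in the sources used here. Cells were captured on the 10x Chromium 5' platform, in which a unique molecular identifier (UMI) marks each RNA molecule. Gene expression profiles of these tumours were not analysed here, and receptor chains do not tell CD4 from CD8 T cells. No untreated tumour is among the samples. The anti-PD-1 antibody was common to both genotypes, so its effect cannot be read from these libraries.

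A T cell receptor is a pair of an alpha and a beta chain. Each chain is assembled in the thymus by joining a V and a J gene, with a D gene between them in the beta chain, and bases are trimmed and added at the joints. The joint encodes CDR3, the loop that lies over the bound peptide, so the nucleotides of both joints mark the descendants of 1 cell. T cells that meet their antigen divide, and in a tumour this leaves several cells with one receptor.

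The CDR3 nucleotides of the 7 clonotypes with 4 or more paired cells, which together gave 28 of the 88 cells, are shown to let the joints be compared. Capitals mark the bases between the V side and the J side. The V side is the run from the 5' end that matches the majority base of all chains of the same TRBV gene or TRAV family in both libraries, and the J side is the like run from the 3' end for the same J gene. Germline sequences were not used, so capitals may include bases of the V or J gene, above all where a TRAV family pools unlike genes. The beta chain of clonotype 2 is in lower case throughout, as too few chains shared its V gene for a majority.
clonotype 4 alpha: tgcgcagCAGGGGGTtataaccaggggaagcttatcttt
clonotype 4 beta: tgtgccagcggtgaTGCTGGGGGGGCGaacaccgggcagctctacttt
clonotype 6 alpha: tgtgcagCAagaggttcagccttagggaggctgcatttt
clonotype 6 beta: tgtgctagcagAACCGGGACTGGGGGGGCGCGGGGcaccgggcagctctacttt
clonotype 8 alpha: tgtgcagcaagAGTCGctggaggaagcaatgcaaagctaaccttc
clonotype 8 beta: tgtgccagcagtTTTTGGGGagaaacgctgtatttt
clonotype 11 alpha: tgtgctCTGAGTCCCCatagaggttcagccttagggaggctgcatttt
clonotype 11 beta: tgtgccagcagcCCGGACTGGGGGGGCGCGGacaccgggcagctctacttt
clonotype 2 alpha: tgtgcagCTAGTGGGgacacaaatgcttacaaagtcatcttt
clonotype 2 beta: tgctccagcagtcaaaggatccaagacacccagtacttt
clonotype 13 alpha: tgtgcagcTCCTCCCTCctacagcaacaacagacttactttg
clonotype 13 beta: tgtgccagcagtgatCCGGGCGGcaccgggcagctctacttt
clonotype 17 alpha: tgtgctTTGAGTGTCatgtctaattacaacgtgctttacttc
clonotype 17 beta: tgtgccagcggtgGTtatgaacagtacttc
All 7 clonotypes used TRBJ2 genes, which were in 74.3% of all expanded and 72.6% of single-cell clonotypes. The 7 carried 6 TRBV names. The joint of the beta chain differed widely in length among them, from 2 bases in clonotype 17 to 24 bases in clonotype 6. The capitals of clonotypes 4, 6 and 11 hold a long run of G, and the deposited list named TRBD2 for these, whereas no D gene was given for clonotypes 8, 2, 13 and 17.

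Clonotype 4 had the most paired cells, 6, of which 5 had exactly 1 chain of each kind. With single-chain barcodes included, clonotype 1 held the most barcodes among the expanded clonotypes, 8, against 7 for clonotype 4. Clonotype 4 paired TRAV3D-3 and TRAJ23 (CDR3 alpha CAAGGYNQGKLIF) with the name TRBV12-2+TRBV13-2 and TRBJ2-2. Its cells held 13, 7, 7, 10 and 4 TRA UMIs and, in the same order, 15, 9, 2, 4 and 3 TRB UMIs. Every one of the 5 cells thus had more than 3 alpha molecules, while the beta chain of 1 rested on 2 molecules. Clonotype 6, with 5 paired cells, paired TRAV7D-2 and TRAJ18 (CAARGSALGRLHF) with TRBV17 and TRBJ2-2. Its 3 cells held 16, 12 and 7 TRA UMIs and 7, 7 and 21 TRB UMIs, so no cell was under 7 for either chain. Clonotype 8, with 5 paired cells, paired TRAV14D-2 and TRAJ42 with TRBV15 and TRBJ2-3 (CDR3 beta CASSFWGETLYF). Its cells held 7, 8, 2, 4 and 3 TRA UMIs and 2, 23, 3, 2 and 9 TRB UMIs, so 1 cell stood far above the others for the beta chain. Clonotype 11, also of 5 paired cells, paired TRAV12D-3 and TRAJ18 with TRBV3 and TRBJ2-2. Its 4 cells held 3, 5, 6 and 6 TRA UMIs, a narrow range, against 19, 2, 19 and 2 TRB UMIs.

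The 3 clonotypes of 4 paired cells differed in how firmly their chains were read. Clonotype 13 paired TRAV14-3 and TRAJ7 (CAAPPSYSNNRLTL) with TRBV13-1 and TRBJ2-2 (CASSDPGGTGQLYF). It held 18, 11, 5 and 11 TRA UMIs and 33, 31, 24 and 19 TRB UMIs, and was the 1 clonotype of the 31 with 2 or more member cells in which every cell had over 10 beta molecules. Clonotype 2 paired TRAV7D-4 and TRAJ30 with TRBV23 and TRBJ2-5 (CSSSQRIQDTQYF), and held 6, 11, 13 and 6 TRA UMIs and 2, 3, 8 and 6 TRB UMIs. A further 3 barcodes of this identifier held the alpha chain alone. Clonotype 17 paired TRAV12D-2 and TRAJ21 (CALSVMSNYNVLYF) with TRBV12-2+TRBV13-2 and TRBJ2-7 (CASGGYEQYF), and held 10, 8 and 12 TRA UMIs and 7, 17 and 5 TRB UMIs. Its CDR3 beta of 10 residues was the shortest of the 35.

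Most expanded clonotypes were small. Of the 37 identifiers with 2 or more paired barcodes, 20 had 2, 10 had 3, 3 had 4, 3 had 5 and 1 had 6. Just outside the limit stood the identifiers with 1 paired barcode, of which 146 had exactly 1 chain of each kind. The 37 identifiers held 103 paired barcodes, and 15 of these were left out because they carried several chains of a kind, which emptied clonotypes 19 and 26. Of the 35 that remained, 4 were represented by 1 cell. In the p53 KO library 101 of 210 such cells (48.1%, 41.2 to 55.1) fell into 24 clonotypes, of which the largest had 28 paired barcodes. That interval too takes the cells of a clonotype as independent and is too narrow. The libraries shared 0 cell barcodes.

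**Figure D1:**
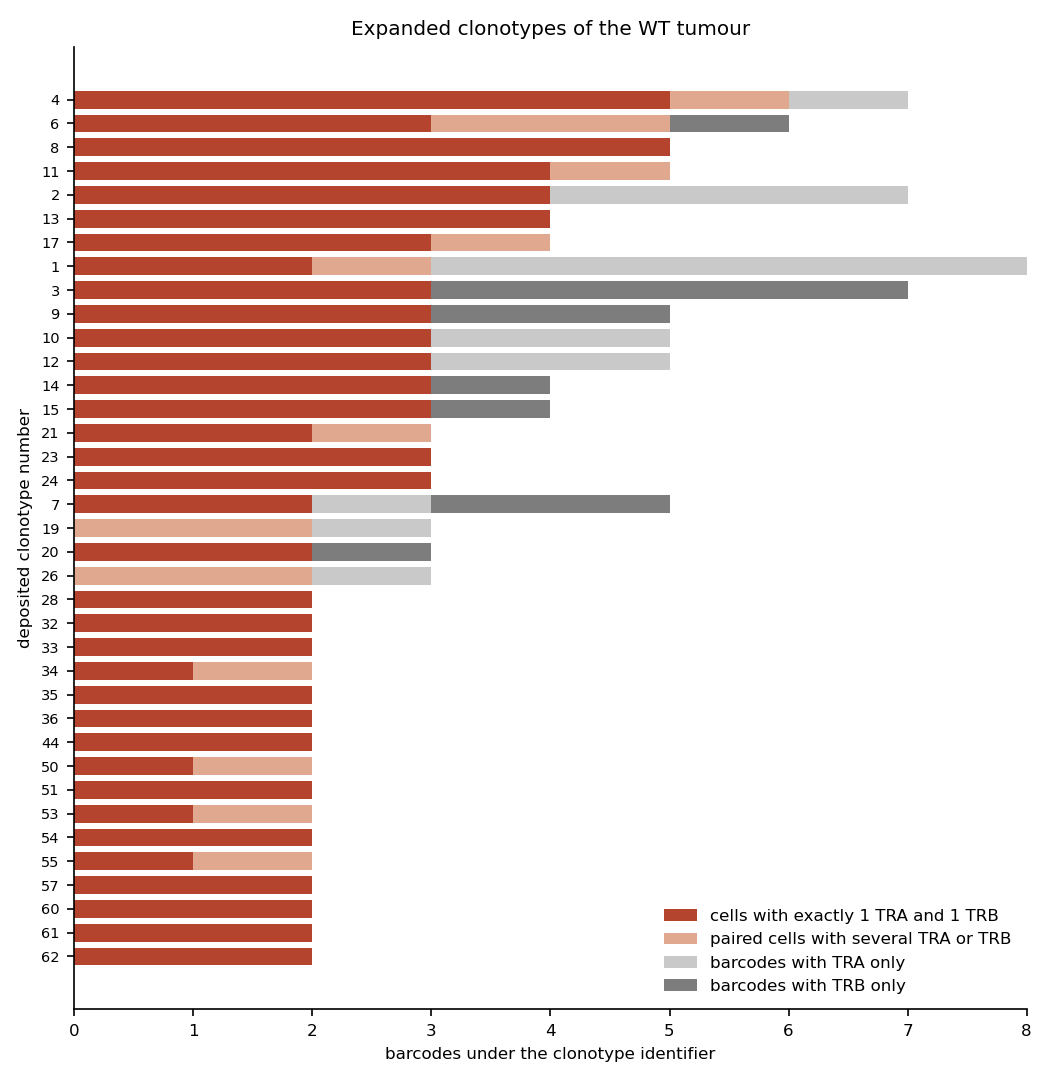
Barcodes under each of the 37 identifiers with 2 or more paired barcodes in the WT tumour, one bar per deposited clonotype number, split by the chains each barcode held. Clonotype 4 has the most paired cells (6), and clonotypes 19 and 26 have none with exactly 1 TRA and 1 TRB.

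The 10 clonotypes of 3 paired cells were numbers 1, 3, 9, 10, 12, 14, 15, 21, 23 and 24, and TRBV3 was in 4 of them (10, 14, 15 and 24). Clonotype 14 joined TRAV7D-2 and TRAJ21 to TRBV3 and TRBJ2-3 (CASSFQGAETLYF), and clonotype 15 joined TRAV5-1 and TRAJ7 (CSASPDYSNNRLTL) to TRBV3, TRBD1 and TRBJ1-5. Clonotype 24 joined TRAV4D-4 and TRAJ28 to TRBV3 and TRBJ1-1 (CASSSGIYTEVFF). The betas of 10 and 24 rested on 1, 3 and 1 and on 1, 1 and 16 UMIs, a median of 1 for both. Clonotypes 3 and 9 shared TRAV9-4, joined to TRAJ37 and TRAJ58. Barcodes with 1 chain alone were frequent under these identifiers, with 5 alpha barcodes for clonotype 1, 4 beta barcodes for clonotype 3, 2 beta barcodes for clonotype 9 and 2 alpha barcodes each for clonotypes 10 and 12. The receptor genes of these 10 clonotypes formed 10 different combinations, as those of the larger ones did.

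The 15 cells with several chains showed which receptors had another chain. In 9 of them there were 2 TRA contigs and in 6 there were 2 TRB contigs. Both paired cells of clonotype 19 carried the alpha chains TRAV8D-2 with TRAJ31 (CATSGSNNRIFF) and TRAV7N-4 with TRAJ26 (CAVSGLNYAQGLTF), and both of clonotype 26 carried TRAV8D-1 with TRAJ13 (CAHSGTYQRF) and TRAV14D-1 with TRAJ9 (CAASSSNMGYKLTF). In these clonotypes every paired cell thus held the same pair of alpha chains. In clonotype 6, 2 cells carried the beta chain TRBV19 with TRBJ1-3 (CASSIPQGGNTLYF) besides the TRBV17 chain, with 3 and 6 UMIs. In clonotype 21 the alpha chains TRAV13-1 with TRAJ35 (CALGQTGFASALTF) and TRAV6-3 with TRAJ48 (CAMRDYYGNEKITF) each stood alone in 1 of the member cells, with 6 UMIs each, and together in the third paired cell, with 10 and 5 UMIs. For that clonotype the tie was broken by gene name and TRAV13-1 was used. Outside clonotypes 19 and 26 there were 11 added contigs. Of these, 3 belonged to the chains of clonotypes 6 and 21 that were read in 2 cells, and 8 were chains read in 1 cell of their clonotype. Whether the latter came from other cells in the same droplet was not tested.

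Receptor chains of 8 expanded clonotypes also turned up in barcodes with another identifier. Clonotype 272, counted as a single-cell clonotype, held both CDR3 nucleotide sequences of clonotype 23, with 10 TRA and 5 TRB UMIs. The deposited V gene name of its beta chain was TRBV12-2+TRBV13-2 in place of TRBV13-2, and the other gene names were equal. All 42 WT contigs of the combined name carried the CDR1 and CDR2 of contigs named TRBV13-2, and 0 those of TRBV12-2. Both chains of clonotype 8 were in 1 barcode of 4 contigs (clonotype 117), and both chains of clonotype 60 in another (clonotype 81). Clonotype 187 had the beta nucleotides of clonotype 4 with a different TRAV3D-3 and TRAJ23 alpha chain (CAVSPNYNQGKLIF). Among the single-cell clonotypes themselves, 158 and 160 shared the CDR3 nucleotides of both chains, as did 84 and 246, so that counting by nucleotides would add them to the expanded clonotypes.

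The V genes of the beta chain, on chromosome 6, spread over 13 names in the 35 clonotypes. TRBV3 (41048394 to 41048824 in GRCm38.p6, the assembly of mm10, from the RefSeq annotation) was the most frequent, in 6 of 35 expanded (17.1%, 6.56 to 33.6) and 14 of 146 single-cell clonotypes (9.59%, 5.34 to 15.6). It was in 18 of the 88 cells and in 0 of 24 expanded p53 KO clonotypes. TRBV12-2+TRBV13-2 followed with 5 expanded (14.3%, 4.81 to 30.3) and 16 single-cell clonotypes (11%, 6.40 to 17.2), and held 15 of the cells. TRBV13-1 and TRBV1 were each in 4 expanded clonotypes (11.4%, 3.2 to 26.7), against 14 (9.59%) and 18 (12.3%) single-cell ones, and TRBV15 in 3 (8.57%) against 8 (5.48%). Pooled, the TRBV13 family, with the combined name, made up 12 expanded (34.3%, 19.1 to 52.2) and 37 single-cell clonotypes (25.3%, 18.5 to 33.2). The intervals of every gene named here overlapped between expanded and single-cell clonotypes. TRBV5, outside the naming rule and chosen after its values were seen, was in 0 of 35 expanded clonotypes, which allows a share of up to 8.57%, and in 11 of 146 single-cell ones (7.53%), while it was in 5 of 24 expanded p53 KO clonotypes (20.8%). All intervals are exact binomial intervals of 1 library, cover counting error only and are not adjusted for the number of genes and properties compared.

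The shares of the J cluster and of named D genes had overlapping intervals in expanded and single-cell clonotypes. The TRBJ2 cluster was in 26 of 35 expanded (74.3%, 56.7 to 87.5) and 106 of 146 single-cell clonotypes (72.6%, 64.6 to 79.7), and the order turned to 71% against 72.6% without the clonotypes of 5 or more paired cells, all of which used TRBJ2. TRBJ1-1, TRBJ2-2, TRBJ2-3 and TRBJ2-7 were in 5 expanded clonotypes each (14.3%), against 9, 19, 11 and 24 single-cell ones (6.16%, 13%, 7.53% and 16.4%). TRBJ2-1 and TRBJ2-5 were in 4 each, against 13 and 23. TRBJ2-2 held 18 of the 88 cells, since clonotypes 4, 6, 11 and 13 all carried it. A D gene was named in 11 of 35 (31.4%, 16.9 to 49.3) and 36 of 146 clonotypes (24.7%, 17.9 to 32.5). TRBD1 accounted for 6 and 25 of these (17.1% in both) and TRBD2 for 5 and 11 (14.3% and 7.53%). TRBD2 turned to the lower share, 6.45%, without the clonotypes of 5 or more paired cells, and was in 17 of the 88 cells. The C gene followed the order of the locus, in which TRBJ1 genes lie before TRBC1 and TRBJ2 genes before TRBC2. Its number matched the J cluster in all 35 expanded clonotypes and in 145 of the 145 single-cell clonotypes with a C gene.

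**Figure D2:**
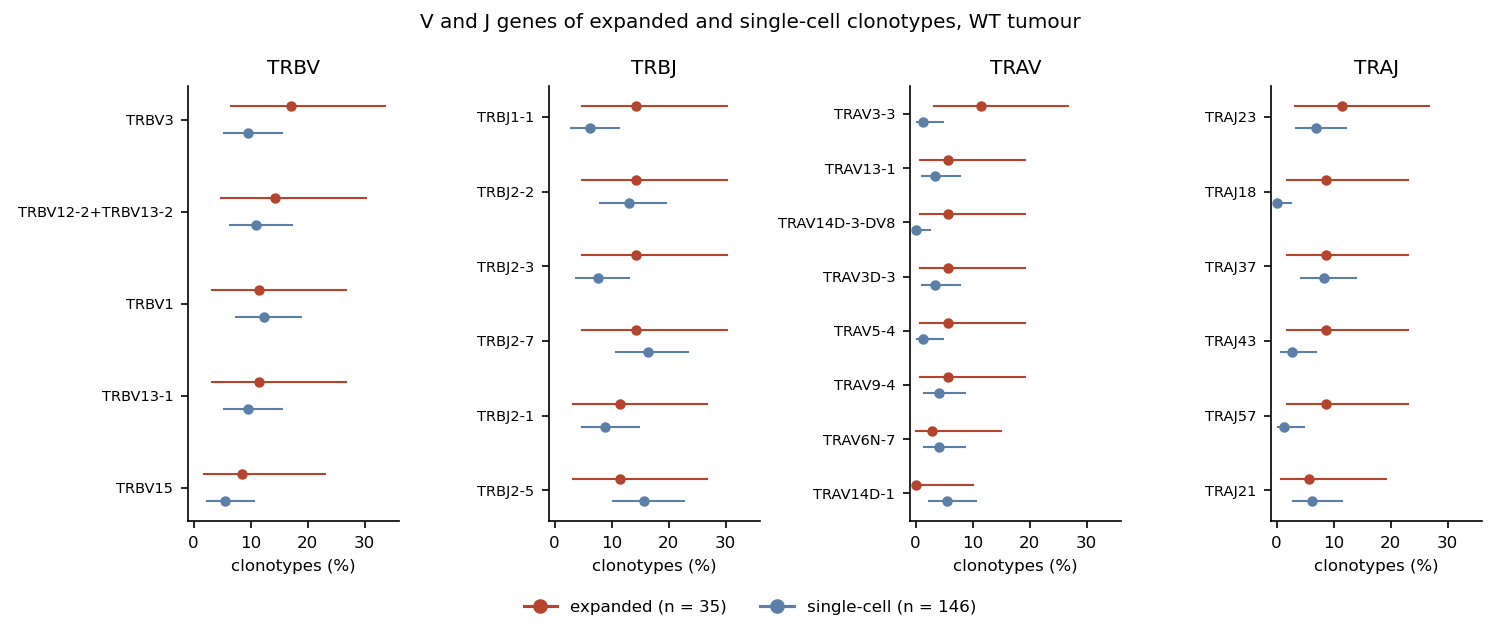
Share of clonotypes (percent) with each V and J gene of the naming rule, in expanded (red, n = 35) and single-cell clonotypes (blue, n = 146) of the WT tumour; lines are exact 95% intervals. TRAV3-3 has the largest gap among the TRAV genes (11.4% against 1.37%), and TRAJ18 was at 8.57% against 0.

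The alpha chain, on chromosome 14, used 25 TRAV and 20 TRAJ genes in the 35 clonotypes. TRAV3-3 (53666005 to 53666506) led with 4 expanded clonotypes (11.4%, 3.2 to 26.7), numbers 7, 20, 35 and 50, against 2 of 146 single-cell ones (1.37%, 0.166 to 4.86). All 4 were clonotypes of 2 paired cells, so with 3 or more paired cells required TRAV3-3 was at 0 of 17. With TRAV3D-3, which was in 2 expanded clonotypes (numbers 4 and 1) and 5 single-cell ones, the TRAV3 family reached 6 of 35 (17.1%, 6.56 to 33.6) against 8 of 146 (5.48%, 2.40 to 10.5). In the p53 KO library the family was in 3 of 24 expanded (12.5%) and 14 of 109 single-cell clonotypes (12.8%). The TRAV6 family, singled out after its values were seen, was in 2 expanded (5.71%, 0.700 to 19.2) and 24 single-cell clonotypes (16.4%, 10.8 to 23.5). The intervals of the expanded and single-cell clonotypes overlapped for TRAV3-3 and for both families. TRAV13-1, TRAV5-4, TRAV9-4 and TRAV14D-3-DV8 were in 2 expanded clonotypes each, against 5, 2, 6 and 0 single-cell ones. TRAV14D-1 was in 0 expanded and 8 single-cell clonotypes (5.48%), and TRAV6N-7 in 1 and 6. TRAV genes lie in near-identical copies on this chromosome, named with D and N, so that reads of a copy may be given the name of another.

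Among the J genes of the alpha chain, TRAJ23 was in 4 expanded (11.4%, 3.2 to 26.7) and 10 single-cell clonotypes (6.85%, 3.33 to 12.2). TRAJ18 (54200777 to 54200842) was in 3 expanded clonotypes (8.57%, 1.8 to 23.1), numbers 6, 11 and 44, and in 0 of 146 single-cell clonotypes, which allows a share of up to 2.05%. These clonotypes held 9 of the 88 cells. Without the clonotypes of 5 or more paired cells the expanded share was 3.23%, and in p53 KO the order was the opposite, with 1 of 24 expanded (4.17%) and 10 of 109 single-cell clonotypes (9.17%). TRAJ18 is the J gene of the invariant natural killer T cell receptor, which joins it to TRAV11. TRAV11 was in 5 of 109 p53 KO single-cell clonotypes and in 0 of 146 WT ones. Whether it was joined to TRAJ18 in p53 KO was not tested. The 3 chains here used TRAV7D-2, TRAV12D-3 and TRAV14D-3-DV8. The invariant chain was in 0 of the 35 expanded clonotypes and 0 of the 88 cells. The same held for the TRAV1 with TRAJ33 chain of mucosal-associated invariant T cells. For either chain the upper limit is 8.57% of expanded clonotypes. Cells of a clonotype share a receptor, so no limit is drawn from the cells. The chain of clonotype 44 is given because it has no base between the majority V and J sides. Those of clonotypes 6 and 11 above have such bases. Their V sides, pooled over the TRAV7 and TRAV12 families, ended after 7 and 6 bases, so the capitals may include bases of the V gene.
clonotype 44 alpha: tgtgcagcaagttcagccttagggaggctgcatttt
TRAJ43 and TRAJ57 were in 3 expanded clonotypes each (8.57%), against 4 (2.74%) and 2 (1.37%) single-cell ones, TRAJ37 in 3 against 12 (8.22%) and TRAJ21 in 2 against 9. TRAJ57 was in 0 of the 17 clonotypes with 3 or more paired cells. J genes numbered 40 or above, which lie nearest to the V genes, were in 14 expanded (40%, 23.9 to 57.9) and 36 single-cell clonotypes (24.7%, 17.9 to 32.5). The order turned to 23.5% against 24.7% with 3 or more paired cells, and to 18.8% against 33% with 3 or more UMIs per contig. Under the UMI minimum, expanded clonotypes left with 1 paired cell were counted as single-cell ones.

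Combinations of alpha and beta genes were counted for the expanded clonotypes alone, with no count for the single-cell clonotypes beside them. The 35 clonotypes held 34 different combinations of the V and J genes of both chains, and 1 combination occurred in both clonotypes 7 and 20. Each of these had 2 paired cells and joined TRAV3-3 and TRAJ43 to TRBV13-3 and TRBJ2-1. Their sequences are shown because the alpha chains encode the same residues and differ at 1 base, A12G from clonotype 20 to clonotype 7 (positions counted from 1 at the 5' end of CDR3), while the beta joints are unlike.
clonotype 7 alpha: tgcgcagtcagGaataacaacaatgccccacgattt
clonotype 20 alpha: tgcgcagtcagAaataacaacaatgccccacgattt
clonotype 7 beta: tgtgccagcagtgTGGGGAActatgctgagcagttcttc
clonotype 20 beta: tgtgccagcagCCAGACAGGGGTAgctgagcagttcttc
Both alpha chains read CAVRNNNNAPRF, and the beta chains read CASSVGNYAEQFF in clonotype 7 and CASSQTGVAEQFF in clonotype 20. Both betas had 13 residues. The cells of clonotype 7 held 7 and 8 TRA UMIs and 3 and 6 TRB UMIs, and those of clonotype 20 held 8 and 15 TRA UMIs and 1 and 4 TRB UMIs. Clonotype 7 had a further 1 barcode with the alpha chain alone and 2 with the beta chain alone. The alpha nucleotides of clonotype 7 were read in 3 barcodes and those of clonotype 20 in 2.

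Other alpha chains of expanded clonotypes recurred with a few base changes. How often chains of single-cell clonotypes recurred in this way was not counted. Clonotypes 4 and 12 differed at 1 residue of the alpha chain, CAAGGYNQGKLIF against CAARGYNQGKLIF, and both used TRAJ23 and the beta name TRBV12-2+TRBV13-2. The residues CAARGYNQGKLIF of clonotype 12 were found in 2 single-cell clonotypes of the same library, 222 and 259, and in 3 p53 KO clonotypes, in each case with another TRAV gene. The nucleotide sequences are shown because they reach one amino acid sequence from different V genes.
clonotype 12 alpha (TRAV14N-3): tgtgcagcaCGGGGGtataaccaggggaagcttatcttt
clonotype 222 alpha (TRAV7D-2): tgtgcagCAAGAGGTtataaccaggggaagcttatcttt
clonotype 259 alpha (TRAV7D-2): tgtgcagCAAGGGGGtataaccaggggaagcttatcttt
The changes from clonotype 12 were C10A, G12A and G15T in clonotype 222 and C10A in clonotype 259. Their beta chains differed from that of clonotype 12 (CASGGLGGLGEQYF). Clonotype 54 (TRAV9D-2 and TRAJ37, TRBV19 and TRBJ2-7) and single-cell clonotype 41 (TRAV9-2 and TRAJ37, TRBV19 and TRBJ2-7) shared the residues of the alpha chain, with the base changes C7T, A10T, G11C and T12C from 54 to 41. Their betas differed at 1 residue, with A21T, C25G and C26G. The beta residues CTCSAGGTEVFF of clonotype 3 were also in single-cell clonotype 150, with the base changes G18A and C21G. The alpha chain of clonotype 150 joined the same genes as that of clonotype 3, TRAV9-4 and TRAJ37, with a different CDR3.

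Clonotype 17 was the 1 expanded WT receptor whose alpha and beta residues were both found in the p53 KO library, in a single cell there (clonotype 208). The p53 KO chains differed from the WT chains printed above by C15G in the alpha and T15G in the beta, each at a base in capitals and with no change of residue.
p53 KO clonotype 208 alpha: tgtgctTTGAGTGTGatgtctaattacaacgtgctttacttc
p53 KO clonotype 208 beta: tgtgccagcggtgGGtatgaacagtacttc
The match was of residues and V and J genes and not of nucleotides, and the KO chains were read in 1 paired cell. Matches with p53 KO were sought for expanded WT clonotypes only, so no share of single-cell WT clonotypes can be set beside this one.

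CDR3 length was alike for the beta chain and more concentrated for the alpha chain. The CDR3 beta had a mean of 13.9 residues in both groups (SD 1.63 over 35 expanded and 1.56 over 146 single-cell clonotypes), with a range of 10 to 18 and 10 to 17. Length 13 was in 11 expanded (31.4%, 16.9 to 49.3) and 22 single-cell clonotypes (15.1%, 9.69 to 21.9), and length 15 in 6 (17.1%) and 37 (25.3%). The CDR3 alpha averaged 13.7 ± 0.957 residues (SD, n = 35) against 13.5 ± 1.26 (SD, n = 146). Of the expanded alpha chains 19 had exactly 14 residues (54.3%, 36.6 to 71.2), against 45 single-cell ones (30.8%, 23.5 to 39.0). These intervals overlapped, and the difference in share stayed between 12 and 30.5 percentage points under the 8 alternatives tried. In p53 KO 6 of 24 expanded alpha chains (25%) and 30 of 109 single-cell ones (27.5%) had that length, which was chosen after its values were seen. The estimated number of bases between the V and J sides of the CDR3 beta was 11.4 ± 4.74 (SD, n = 34) in expanded and 10.5 ± 4.05 (SD, n = 143) in single-cell clonotypes, a difference within the spread.

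**Figure D3:**
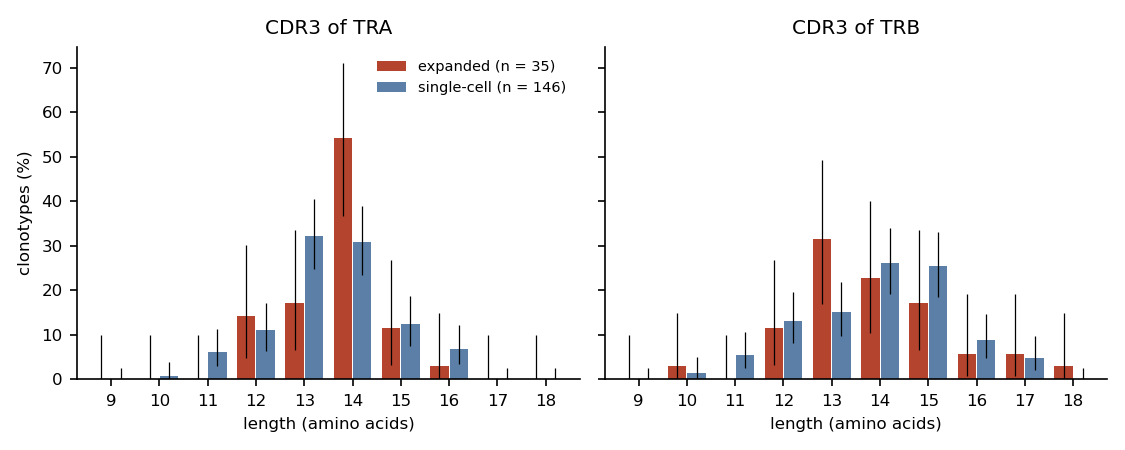
Share of clonotypes (percent) with each CDR3 length in amino acids, for the alpha (left) and beta chain (right) of expanded (red) and single-cell clonotypes (blue) of the WT tumour; thin lines are exact 95% intervals. Length 14 of the alpha chain stands at 54.3% against 30.8%.

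The middle of the CDR3 beta (4 residues left off at either end) had a higher mean hydropathy in the expanded clonotypes, by less than the spread between clonotypes. The mean Kyte-Doolittle hydropathy, a scale on which apolar residues are positive, was -0.652 ± 0.910 (SD, n = 35) against -1.19 ± 1.09 (SD, n = 146), a difference smaller than either SD. The mean stayed higher under the 8 alternatives tried, down to -0.913 against -1.01 with 3 or more UMIs in both contigs. It was above 0 in 12 expanded (34.3%, 19.1 to 52.2) and 15 single-cell clonotypes (10.3%, 5.87 to 16.4), and these intervals did not overlap. This depended on the threshold, since no expanded clonotype lay between -0.467 and 0.0500 while the single-cell value nearest below 0 was -0.0625. Above -0.25 the counts were 12 (34.3%, 19.1 to 52.2) and 29 (19.9%, 13.7 to 27.3), above -0.5 they were 13 (37.1%, 21.5 to 55.1) and 38 (26%, 19.1 to 33.9), and above 0.5 they were 3 (8.57%, 1.8 to 23.1) and 6 (4.11%, 1.52 to 8.73), with overlapping intervals in each case. Above 0.25 they were 9 (25.7%, 12.5 to 43.3) and 8 (5.48%, 2.40 to 10.5), with intervals apart. In p53 KO the counts were 4 of 24 (16.7%) and 17 of 109 (15.6%). The 12 clonotypes ran from 0.0500 in clonotype 9 (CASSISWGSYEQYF) to 1.00 in clonotype 12 (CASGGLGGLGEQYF), and included all 4 with TRBV1 (3, 35, 51 and 55), while 3 of 18 single-cell TRBV1 clonotypes were above 0. Apart from TRBV1 the counts were 8 of 31 (25.8%) and 12 of 128 (9.38%). The median was 3 TRB UMIs in the 27 cells of these clonotypes and 5 in the other 61, and with 3 or more UMIs required in both contigs the order of the share above 0 turned to 12.5% of 16 against 17% of 100. Clonotype size was recounted after each UMI minimum, so an expanded clonotype left with 1 paired cell became a single-cell one. Under the minimum of 3, clonotypes 3, 9, 10, 12, 20, 24, 35 and 51, all above 0, changed group in this way. With 2 or more UMIs the share above 0 was 28% of 25 against 11.2% of 125. The part of chain depth in the difference was not tested.

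**Figure D4:**
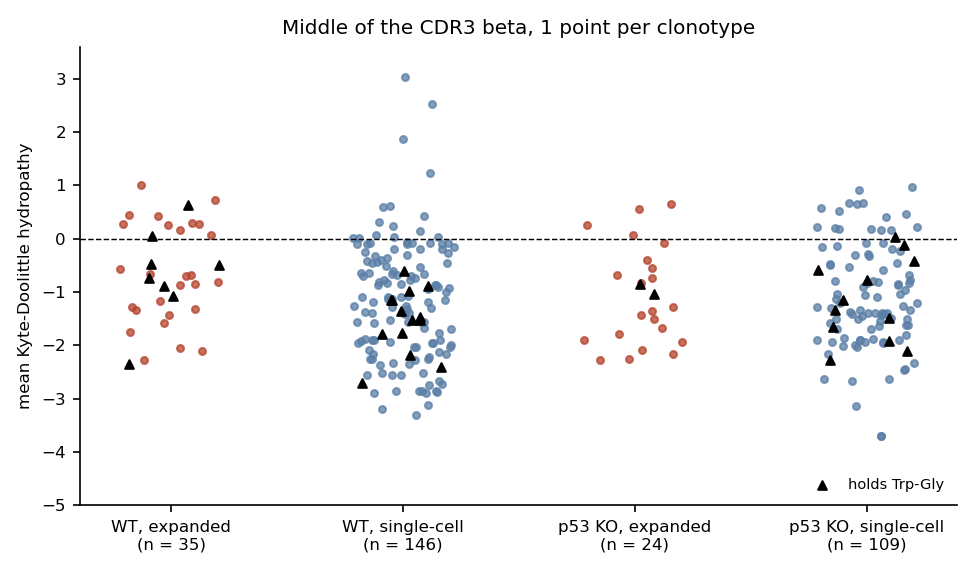
Mean Kyte-Doolittle hydropathy of the middle of the CDR3 beta, one point per clonotype, in both libraries; black triangles are chains with Trp-Gly, and the dashed line is 0. Of the expanded WT clonotypes 12 of 35 lie above 0, against 15 of 146 single-cell ones.

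Charged and amide residues of the beta middle were in fewer expanded clonotypes, with overlapping intervals. Asp was in 10 of 35 (28.6%, 14.6 to 46.3) against 69 of 146 (47.3%, 38.9 to 55.7), Asn in 11 (31.4%, 16.9 to 49.3) against 68 (46.6%, 38.3 to 55.0), and Arg or Lys in 5 (14.3%, 4.81 to 30.3) against 41 (28.1%, 21 to 36.1). Gly was in 33 (94.3%, 80.8 to 99.3) against 121 (82.9%, 75.8 to 88.6), and Ile in 5 (14.3%, 4.81 to 30.3) against 4 (2.74%, 0.751 to 6.87). The intervals of Gly and Ile overlapped as well. Of other apolar residues, Leu was in fewer expanded clonotypes, 7 (20%) against 39 (26.7%), as was Met. Val, 5 (14.3%) against 16 (11%), Ala, 16 (45.7%) against 53 (36.3%), and Phe were in more. In p53 KO the expanded and single-cell shares were 20.8% and 45.9% for Asn, 37.5% and 42.2% for Asp, and 29.2% and 31.2% for Arg or Lys. With 3 or more UMIs per contig, and clonotype sizes recounted, Asp turned to 43.8% against 42%, and Arg or Lys to 31.2% against 25%. In the alpha middle, Gly was in 27 of 35 (77.1%) and 101 of 146 (69.2%), and Asn in 25 (71.4%) and 101 (69.2%).

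A Trp-Gly pair, noticed in the sequences and counted afterwards, was in the beta middle of 8 expanded clonotypes (22.9%, 10.4 to 40.1), with 24 of the 88 cells, and of 14 single-cell ones (9.59%, 5.34 to 15.6). All 22 used TRBJ2 genes, which were in 74.3% of all expanded and 72.6% of all single-cell clonotypes. The beta chains of clonotypes 8 and 11 are printed above. Those of the other 6 expanded clonotypes are shown because in each the pair is encoded within the capitals.
clonotype 9 beta: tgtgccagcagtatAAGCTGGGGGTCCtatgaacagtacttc
clonotype 10 beta: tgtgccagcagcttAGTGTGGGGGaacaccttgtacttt
clonotype 23 beta: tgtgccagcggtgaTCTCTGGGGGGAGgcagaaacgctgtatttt
clonotype 44 beta: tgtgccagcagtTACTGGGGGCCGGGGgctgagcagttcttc
clonotype 57 beta: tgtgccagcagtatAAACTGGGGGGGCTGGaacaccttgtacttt
clonotype 60 beta: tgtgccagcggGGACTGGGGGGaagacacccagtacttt
These 8 clonotypes used 5 TRBV names and 6 TRBJ genes. TRBV3 was in clonotypes 10 and 11, TRBV15 in 8 and 44 and TRBV19 in 9 and 57, and no V with J combination occurred more than once. A D gene was given for 3 of them, TRBD2 for clonotypes 11 and 57 and TRBD1 for clonotype 44. In p53 KO the pair was in 2 of 24 expanded (8.33%) and 12 of 109 single-cell clonotypes (11%), all with TRBJ2 genes. Of the 24 cells, 12 had fewer than 3 TRB UMIs. When contigs had to hold at least 3 UMIs the shares were 12.5% of 16 and 13% of 100, and at a minimum of 2 UMIs they were 20% of 25 and 12% of 125. Under the minimum of 3, clonotypes 9, 10, 23, 57 and 60 were left with 1 paired cell and counted as single-cell ones. The part of chain depth in the difference was not tested. Single-cell clonotype 272, which carries the receptor of clonotype 23, is 1 of the 14.

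Alpha chains rested on more molecules in the expanded clones. The 88 cells held a median of 6 TRA UMIs (quartiles 4 and 10, range 1 to 26), against 4 (quartiles 2 and 6, range 1 to 37) in the 146 single-cell clonotypes, so the groups overlapped widely. The beta chain had a median of 4 TRB UMIs in both groups (quartiles 2 and 8 in both, highest values 33 and 29). Of the 88 cells, 49 had more alpha than beta molecules and 34 more beta, whereas the single-cell clonotypes had 68 of each. In the p53 KO library the expanded clones held a median of 4 TRA UMIs against 3, and 8 TRB UMIs against 5. The rule needs at least 1 molecule of each chain, so the depth of a cell bears on whether it was counted. In 3 clonotypes, chosen after their values were seen, the chains were read unequally. The cells of clonotype 24 held 26, 4 and 19 TRA UMIs but 1, 1 and 16 TRB UMIs. Those of clonotype 23 held 9, 19 and 13 TRA and 4, 2 and 2 TRB UMIs, so every cell had more alpha. The pair of cells of clonotype 33, in contrast, held 5 and 1 TRA and 8 and 9 TRB UMIs.

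**Figure D5:**
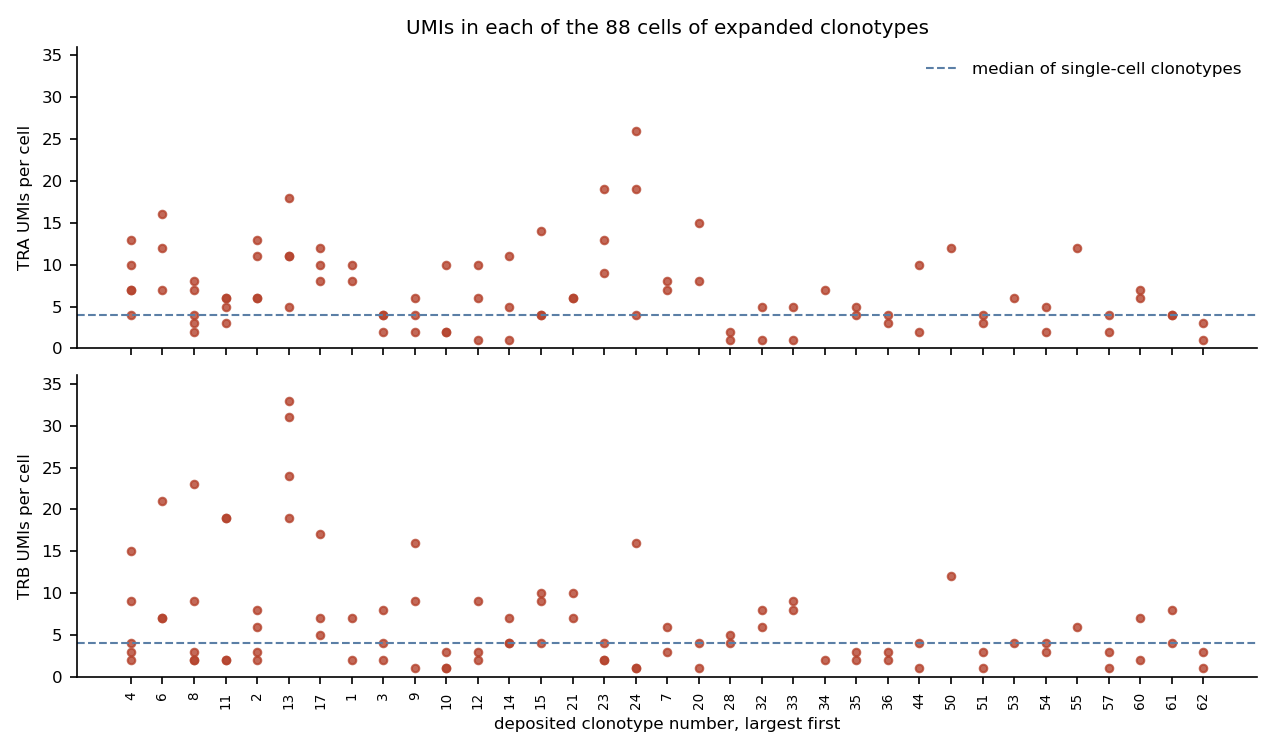
TRA (top) and TRB (bottom) UMIs in each of the 88 cells, by deposited clonotype number, ordered from the most paired cells to the fewest. The dashed line is the median of the 146 single-cell clonotypes, 4 for both chains. The 4 cells of clonotype 13 lie at 19 to 33 TRB UMIs.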

How the data were processed

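Of 4 samples, the 2 T cell receptor libraries were used, and the 2 of gene expression were left out because they hold no receptor chains. The authors deposited a list of filtered contigs per library, in which reads and UMIs are raw whole-number counts, per the file headers. Cell Ranger 6.1.1 and mm10 are named in the submitters' processing notes. Which receptor reference was used was not given in the sources. All 733 WT contigs, with 4280 UMIs, and 709 p53 KO contigs, with 4138 UMIs, were productive TRA or TRB chains. Groups follow the sample titles.

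Genes and residues were counted once per clonotype, taking the chain with most UMIs over its cells. With 1 library per genotype no test was made. Shares have exact (Clopper-Pearson) 95% intervals, and limits at a count of 0 are 3 counts of the total, both for counting error only. The named genes are the 5 most frequent among expanded and the 3 among single-cell clonotypes within each segment (TRAV, TRAJ, TRBV, TRBJ; ties by name), with clonotypes of 4 or more paired cells, receptors sharing a CDR3 and invariant chains. Members and lists were chosen with earlier results of these data known. Majority V and J sides needed 5 chains. Of 73 gene names among expanded clonotypes, 72 matched RefSeq in GRCm38.p6. No doublet caller was run. On a simulated contig list the selection recovered 105 of 105 members, and the bases between the V and J sides came within 3 of the truth in 99.5% of 200 beta chains. The simulated chains had no D gene and a distinct end for each V gene. Alpha chains, with V sides pooled by family, were not scored. Alternatives were other clonotype definitions, UMI minimums of 2 and 3, 3 or more paired cells, keeping cells with several chains, counting cells, other hydropathy thresholds, and leaving out clonotypes of 5 or more paired cells. Scripts ran under Python 3.11.15 with matplotlib 3.10.9, scipy 1.17.1, numpy 2.4.6 and pandas 2.3.3.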

Additional observations from a re-analysis of the deposited data

Results flagged for a closer look

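Barcodes with 1 chain only, which enter no comparison above, carried identifiers of expanded clonotypes. There were 28 of them, of 131 single-chain barcodes in the WT library, 16 with the alpha and 12 with the beta chain, spread over 14 clonotypes. Clonotype 1 had 5 with the alpha chain beside 3 paired cells, and clonotype 3 had 4 with the beta chain beside 3. With them, 131 barcodes stood under the identifiers of expanded clonotypes.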

How the results depend on the processing

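Differences below are expanded minus single-cell clonotypes, in percentage points for shares. Sizes were recounted under each UMI minimum, so expanded clonotypes left with 1 paired cell were counted as single-cell ones. As reported they were -0.0309 residues for CDR3 beta length, 0.207 for CDR3 alpha length, 1.68 for TRBJ2, 6.77 for a named D gene, 15.3 for J alpha genes numbered 40 or above, 24.0 for positive hydropathy, and 2 TRA and 0 TRB UMIs. With 3 or more UMIs per contig, which left 16 expanded and 100 single-cell clonotypes, beta length was 0.488, alpha length 0.358, TRBJ2 10.2, J alpha -14.2, hydropathy -4.5 and TRB UMIs 3. Trp-Gly was then -0.5, Asp 1.75 and Arg or Lys 6.25, and 27.0% of cells were in expanded clonotypes. With 2 or more UMIs, chosen after seeing the data, beta length was 0.144, TRBJ2 8.8, J alpha 0, TRA UMIs 1 and TRB UMIs 2. With 3 or more paired cells (17 clonotypes), beta length was 0.172, alpha length 0.376, J alpha -1.13, D genes 10.6, TRBJ2 9.75, TRB UMIs 1.5, TRAJ57 and TRAV3-3 -1.37 each, and the share of cells 23.9%. Without clonotypes of 5 or more paired cells, beta length was -0.268, D genes 1.15, TRBD2 -1.08 and TRBJ2 -1.63. Counting cells gave beta length -0.0134, D genes 10.6 and TRBJ2 5.81. Keeping cells with several chains gave beta length -0.0736, TRBJ2 3.84 and TRA UMIs 1. Clonotypes by V genes and CDR3 residues gave beta length -0.228 and TRBJ2 4.36. By CDR3 nucleotides of both chains, chosen after seeing the data, beta length was -0.300, alpha length 0.122, D genes 10.7 and TRBJ2 5.62. With the hydropathy threshold at -0.5, -0.25 or 0.5 in place of 0, chosen after seeing the data, the hydropathy difference was 11.1, 14.4 and 4.46. Some alternatives counted fewer clonotypes, and the cause of these changes was not tested. Alternatives for single genes, families, residues and lengths outside the planned results were added after seeing the data.

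No paired analysis was possible because each genotype had 1 library. With 35 clonotypes, a count of 0 allows a share of up to 8.57%, so genes missing from the expanded clones are not shown to be absent. Clones differ between mice, and the number of mice is not known here.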
